A study of Mus musculus with 4 samples.

Results

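Gene expression was compared between 2 libraries of mouse embryoid bodies, 1 labelled ATRA 6 days and 1 labelled ATRA 0 days, out of the 4 libraries of the series. The 2 libraries were chosen by label, and the comparison took in the 5602 of 9997 gene symbols that reached 1 FPKM in at least 1 of them. The cells were ES-E14TG2a, a mouse embryonic stem cell line, grown in suspension as embryoid bodies, which are round aggregates of differentiating stem cells. ATRA is all-trans retinoic acid. Embryoid bodies received 5 µM of it on culture days 4 and 6, in a protocol whose text is the same for every sample, and the series text speaks of 4 days of treatment. After 8 days the bodies were moved to dishes coated with poly-DL-ornithine and mouse laminin. The labels do not say whether ATRA 0 days was sampled before, during or after the treatment. They give neither the culture day on which a library was taken nor whether the 6-day bodies had been attached to a dish, so time and culture surface cannot be told apart. The remaining libraries are control embryoid bodies, with no ATRA in the label and no culture day, and ATRA 10 days. Their values are given beside those of the 2 libraries compared. Where 4 values stand in a row they are the control, 0 days, 6 days and 10 days, in that order. The table analysed here holds genes of chromosomes 1 and 10 to 18, with 18 tested genes on others, so that Hox genes, for example, are those of the b and c clusters. Each group is 1 library, so no difference has a replicate check, an SD or a p-value. An embryoid body holds many cell types, and in bulk RNA fewer cells of a type and less RNA per cell cannot be told apart.

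Retinoic acid enters cells, binds the nuclear receptors RAR and RXR on DNA and switches on target genes, among them Hox genes, Rarb and the enzymes that break it down. In embryoid bodies it moves cells out of the pluripotent state and is widely used to obtain neurons. Embryoid bodies also form an outer layer of primitive endoderm, whose visceral form takes up and secretes serum proteins as the liver does later, and whose parietal form lays down a thick basement membrane.

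Each level is an FPKM value, the fragments of a gene divided by its transcript length in kilobases and by the fragments of the library, so levels can be compared between genes. Differences are log2(FPKM + 1) at 6 days minus the same at 0 days, a scale on which low genes change less than their FPKM ratio. A gene is called higher or lower when it differs by 2-fold or more on this scale. By that rule 484 genes (8.64% of those tested) were higher at 6 days and 287 (5.12%) were lower. At 4-fold the counts were 133 (2.37%) and 47 (0.839%). The median gene differed by 0.01, the quartiles were -0.37 and 0.41, and 4831 genes (86.2%) stayed within 2-fold. Of the tested genes 4996 reached 1 FPKM in both libraries. The other 361 that reached it at 6 days alone and 245 that reached it at 0 days alone had to differ in that direction. Lists are therefore counted below mainly over members at 1 FPKM or more in both. The shares of 8.64% and 5.12% include those 361 and 245 genes, and the shares among the 4996 alone were not computed. Counts among members in both thus have no like background, and small ones may lie near it. Just inside the filter stood Slc10a1, at 0.521 FPKM at 0 days and 1.00 at 6 days, and just outside it Il23a, at 0.576 and 0.994 FPKM.

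The depth was estimated at 26400000 fragments at 0 days and 25000000 at 6 days, from the FPKM that 1 fragment is worth. That worth was taken as the median of values between 0.02 and 0.05 FPKM × kb. This preset range bounds the estimate, so the depth is a rough figure. By that estimate a gene at 5 FPKM on a 1 kb transcript rests on 132 and 125 fragments, with counting errors of 8.71% and 8.95%. At 1 FPKM it rests on 26 and 25 fragments. These errors cover counting only. Small RNAs made up 29.9% of all FPKM at 0 days and 24.9% at 6 days, and Rn45s, the ribosomal RNA precursor, was at 1191 and 2629 FPKM. Their part in the differences was not tested beyond leaving such RNAs out, which gave 476 higher and 277 lower genes.

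**Figure D1:**
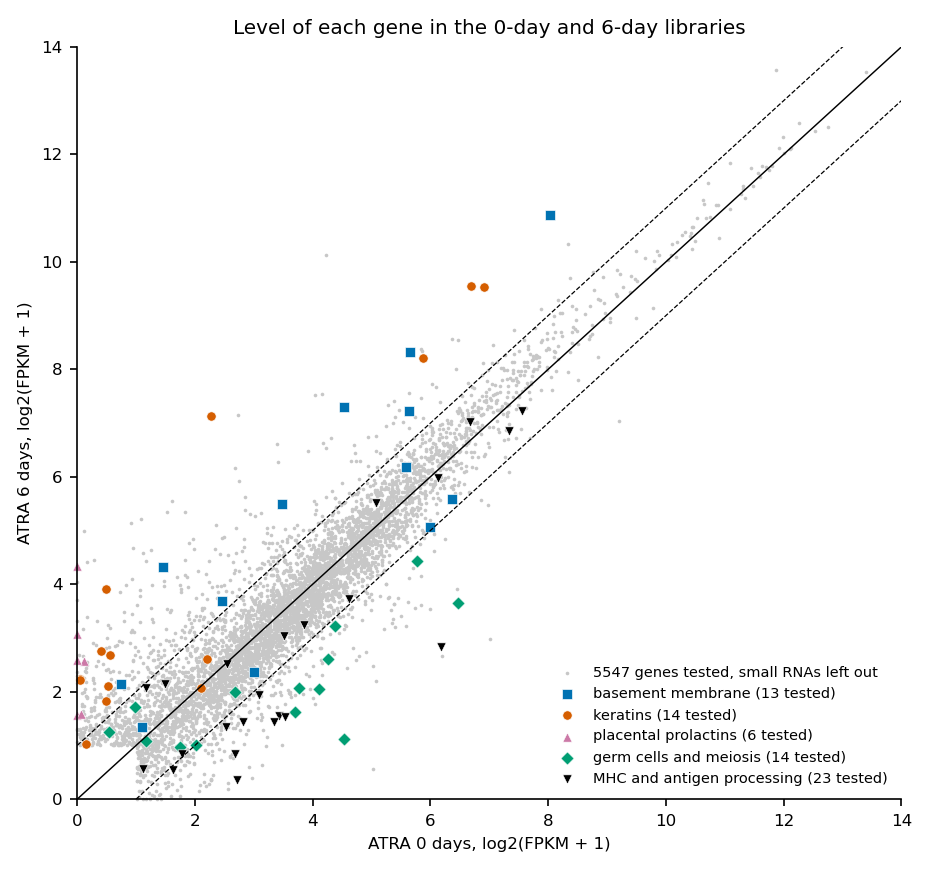
Level of each gene at 0 days (horizontal) and 6 days (vertical), both log2(FPKM + 1), 1 library each. The solid line marks equal levels and the dashed lines 2-fold. Grey points are 5547 tested genes without small RNAs, and symbols mark 5 gene lists. Basement membrane genes and keratins lie mostly above the upper line, germ cell and MHC genes mostly below the equal line, and the placental prolactins sit on or near the left edge, where the 0-day value is 0 or close to it.

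The 25 largest positive differences were led by secreted proteins. Spink1, a secreted inhibitor of trypsin, stood at 26.1 (control), 17.6 (0 days), 1122 (6 days) and 1924 FPKM (10 days). Its difference between 0 and 6 days was 5.91 on the log2 scale, the largest of the 25. By the ratio of FPKM it was 63.7-fold higher at 6 than at 0 days, and it was already the most abundant of the 25 at 0 days. Vtn, which encodes vitronectin, a blood and matrix protein that cells attach to, stood at 0.106, 0.0777, 30.9 and 59.1 FPKM (mm10 chromosome 11, 78499091 to 78502324, plus strand), a difference of 4.89. Car4, a carbonic anhydrase anchored on the outer face of epithelial cells, was at 3.32, 5.60, 141 and 216 FPKM. All 3 were lowest in the control or at 0 days and highest at 10 days. Ihh, Indian hedgehog, a signal made by visceral endoderm, was at 0.524, 0.921, 24.6 and 32.0 FPKM. Vnn1, pantetheinase, which releases vitamin B5 from its bound form, stood at 0.227, 1.25, 20.5 and 44.7 FPKM. Pitx1, a homeobox factor of the hindlimb and the mouth region, was at 0.117, 1.37, 24.005 and 25.2 FPKM. These genes were low in the control and at 0 days and held or passed their 6-day level at 10 days.

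A few of the 25 had been abundant in the control and low at 0 days. Tdh, threonine dehydrogenase, on which mouse embryonic stem cells depend, was at 195 (control), 0.873 (0 days), 34.3 (6 days) and 24.8 FPKM (10 days). Ckb, the brain form of creatine kinase, was at 59.6, 5.396, 70.4 and 61.9 FPKM. Its 6-day level was near that of the control, whereas Tdh at 6 days was well under it. Fabp7, which carries fatty acids in radial glia, and Nefl, the light neurofilament chain, were highest at 6 days. Fabp7 was at 0.890, 1.13, 35.9 and 16.8 FPKM. Nefl was at 2.88, 2.58, 39.6 and 21.8 FPKM. Of the 25, these 2 genes, Tdh, Ckb, Serpinb9e and Dab2 were lower at 10 than at 6 days.

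The 20 largest negative differences held Hox genes, germ cell genes and immediate early genes, described with their groups, and several others. Mrc2, a receptor that takes up collagen, stood at 0.368 (control), 31.5 (0 days), 4.57 (6 days) and 4.58 FPKM (10 days). Nuak2, a kinase related to AMPK, was at 2.07, 15.4, 2.40 and 3.78 FPKM. Fbxo32, atrogin, a ubiquitin ligase of wasting muscle, was at 0.207, 8.20, 0.974 and 1.13 FPKM. Sncg, synuclein gamma, of peripheral neurons, was at 26.1, 41.2, 8.19 and 10.3 FPKM. The 6-day values of Mrc2, Nuak2 and Sncg were closer to the 10-day values than to those of 0 days.

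**Figure D2:**
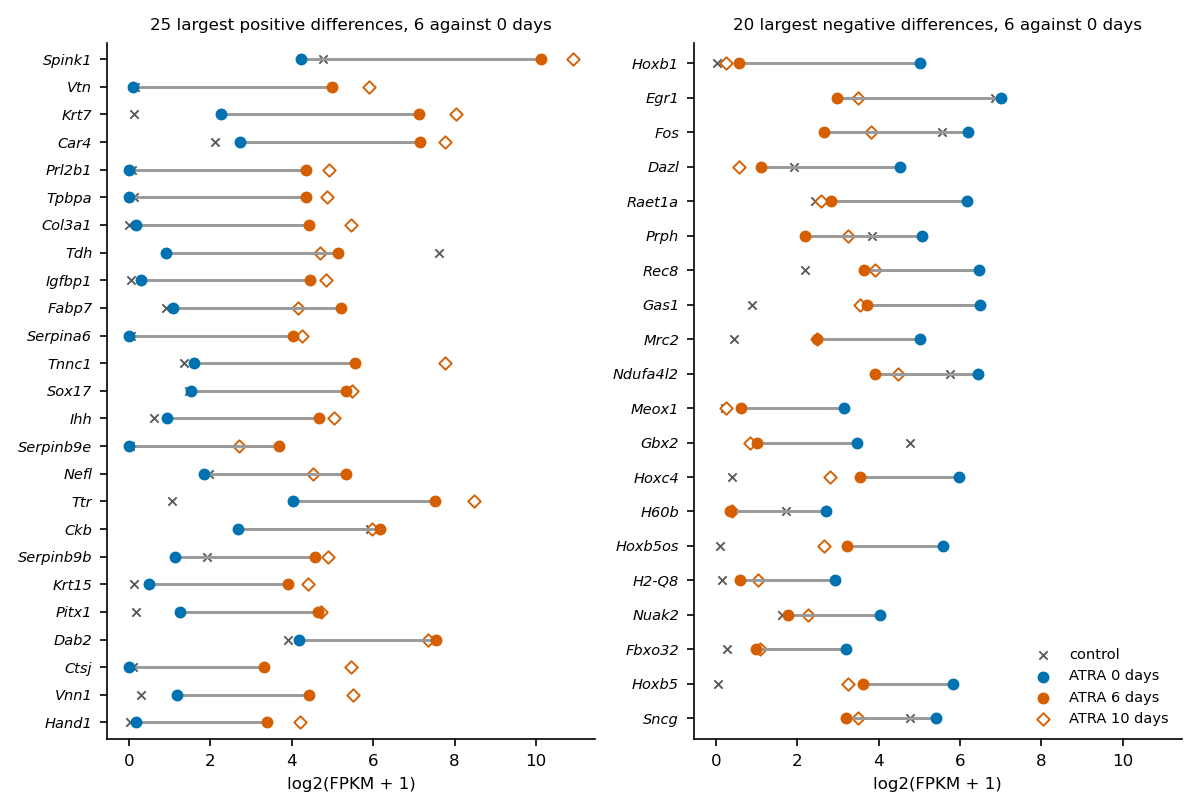
Levels, log2(FPKM + 1), of the 25 genes with the largest positive and the 20 with the largest negative difference, in 4 libraries (1 point each). The grey bar joins 0 and 6 days. Spink1 is the highest gene at 6 days (1122 FPKM), and Tdh stands out by its control level (195 FPKM). On the right, Hoxb1 is near 0 in all but the 0-day library.

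Transcription factors of endoderm were higher at 6 days in most but not all cases. The list held 17 genes in the table, all tested, and of the 14 at 1 FPKM or more in both libraries 9 were higher and 2 lower. Its median over all 17 was 1.70, beside 0.01 for all genes. Sox17, needed to form endoderm, stood at 1.75 (control), 1.87 (0 days), 39.6 (6 days) and 43.5 FPKM (10 days) (mm10 chromosome 1, 4490931 to 4497354, minus strand). Gata4, a zinc finger factor of endoderm and heart, was at 6.53, 17.7, 92.1 and 90.6 FPKM. Gata6, its relative that starts primitive endoderm, was at 3.92, 16.8, 26.7 and 27.1 FPKM, short of 2-fold between 0 and 6 days. Foxa1, which opens chromatin at gut and liver genes, passed the filter only through the 6-day library, at 0.972 and 5.43 FPKM. Not all factors were higher. Sox7, of the same family as Sox17 and found in parietal endoderm, was at 5.11, 19.6, 5.48 and 3.04 FPKM. Cdx1, a caudal factor of the hindgut and a retinoic acid target, was at 0.441, 4.91, 0.232 and 0.726 FPKM. It passed through the 0-day library alone. Lefty1, an inhibitor of Nodal, was at 14.7, 38.3, 12.6 and 5.24 FPKM. These 3 genes were highest at 0 days.

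Besides Lefty1, the list held signals, receptors and membrane proteins, of which Fst, Fgfr4 and Emb were higher among those in both libraries. Fst, follistatin, which binds activin, stood at 2.75 (control), 5.73 (0 days), 59.7 (6 days) and 42.6 FPKM (10 days). Fgfr4, a fibroblast growth factor receptor of endoderm and liver, was at 1.20 FPKM at 0 days and 6.96 at 6 days, and Cxcr4, the chemokine receptor used to sort definitive endoderm, passed only through the 6-day library, at 0.366 FPKM at 0 days and 5.71 at 6 days. Emb, embigin, a membrane glycoprotein, was at 40.0 FPKM at 0 days and 127 at 6 days. Prdm1 and Prox1 differed by -0.10 and -0.12 only.

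Genes of visceral endoderm uptake were divided. Of 15 measured, 11 were tested, all at 1 FPKM or more in both libraries, and 6 were higher and 1 lower (median 1.00). Dab2, an adaptor that loads receptors into clathrin pits, stood at 13.99 (control), 16.9 (0 days), 184 (6 days) and 161 FPKM (10 days). Amn, amnionless, the membrane anchor of the cubilin receptor, was at 6.27, 2.56, 20.9 and 34.7 FPKM. Soat2, which esterifies cholesterol for lipoprotein export, was at 4.02, 2.71, 26.3 and 34.8 FPKM. Soat1, the general form of that enzyme, was at 15.1 FPKM at 0 days and 31.3 at 6 days, and Cpm, carboxypeptidase M, was at 4.88 FPKM at 0 days and 22.3 at 6 days. Ezr, ezrin, which links microvilli to actin, and Vil1, villin, which bundles that actin, differed by 0.71 and 0.62, short of 2-fold. Lrp1, a large endocytic receptor, was lower, at 9.57 FPKM at 0 days and 3.63 at 6 days. Brush border enzymes of the intestine stayed low, with Lct, lactase, at 0.0168 FPKM and Mep1a, meprin alpha, at 0.0124 FPKM at 6 days.

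Serum proteins that the liver makes in adults formed a group of mostly higher genes. Of 42 measured, 21 were tested and 8 of those passed only through the 6-day library. Among the 13 in both, 7 were higher and 1 lower. Ttr, transthyretin, the carrier of thyroid hormone and retinol binding protein, stood at 1.07 (control), 15.4 (0 days), 183 (6 days) and 356 FPKM (10 days). Apoa2, an apolipoprotein of high-density lipoprotein, was at 0.107, 6.24, 40.8 and 146 FPKM. Apom, which carries sphingosine phosphate on it, was at 2.47, 5.92, 23.6 and 69.4 FPKM. Kng1, the kininogen of the clotting contact system, was at 0.0437, 2.34, 14.8 and 64.9 FPKM. Serpinf2, the plasmin inhibitor, was at 0.0346, 1.86, 10.6 and 21.7 FPKM. All 5 of these were highest at 10 days. Apob, the core protein of very-low-density lipoprotein, was at 1.15 FPKM at 0 days and 3.54 at 6 days, and Pros1, protein S, a clotting inhibitor, at 10.5 FPKM at 0 days and 23.1 at 6 days.

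Several serum proteins were near 0 at 0 days. Serpina6, corticosteroid-binding globulin, was listed at 0 there, and stood at 0.0287 FPKM in the control, 15.4 at 6 days and 18.1 at 10 days. Igfbp1, which binds insulin-like growth factors, was at 0.0281 (control), 0.224 (0 days), 20.99 (6 days) and 27.7 FPKM (10 days). Ahsg, fetuin A, was at 0.368, 0.0756, 5.30 and 12.6 FPKM. Plg, plasminogen, was listed at 0 in the control and stood at 0.0562, 2.08 and 6.14 FPKM in the ATRA libraries. Serpina10, an inhibitor of clotting factor X, and Serpind1, heparin cofactor II, were at 4.16 and 3.13 FPKM at 6 days, from 0.104 and 0.0899 FPKM at 0 days. Serpina1a, an alpha-1 antitrypsin with near-identical copies, was at 0.239 FPKM at 0 days and 6.26 at 6 days, and its values are uncertain because reads shared among copies are split by a model.

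Other serum proteins showed little or no difference between 0 and 6 days. Clu, clusterin, an extracellular chaperone, was at 18.99 (control), 288 (0 days), 290.4 (6 days) and 743 FPKM (10 days). C3, the central complement protein, was at 0.0561, 6.81, 4.84 and 20.3 FPKM. Spp2, a secreted phosphoprotein of bone and liver, was listed at 0 in the control and was at 14.8 FPKM at 0 days and 18.4 at 6 days. Serpinf1, an antiangiogenic serpin of many mesenchymal cells, was lower, at 0.343, 30.0, 12.6 and 20.2 FPKM. These 4 genes were much higher at 0 days than in the control, and 3 of them, Clu, C3 and Spp2, reached their highest level only at 10 days.

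**Figure D3:**
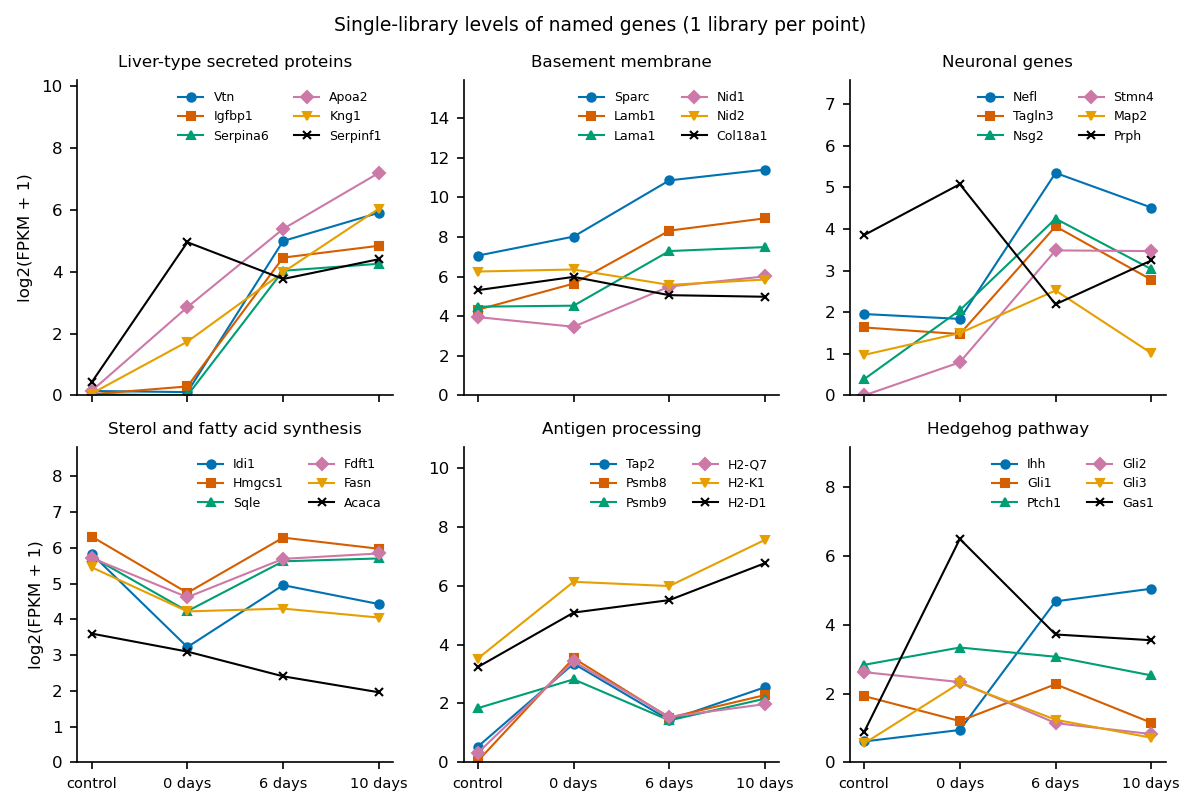
Levels, log2(FPKM + 1), of 36 named genes in 6 groups over the 4 libraries (1 library a point, lines only join them). Vtn, Igfbp1 and Serpina6 are near 0 until the 6-day library, Serpinf1 peaks at 0 days, Idi1, Hmgcs1, Sqle and Fdft1 dip at 0 days, and Tap2, Psmb8, Psmb9 and H2-Q7 peak at 0 days while H2-K1 and H2-D1 are highest at 10 days.

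Tested keratins, the filament proteins of epithelia, were mostly higher at 6 days, with the highest levels in Krt8, Krt18, Krt19 and Krt7. All 22 in the list were in the table and 14 were tested, of which 8 passed only through the 6-day library. Of the 14 tested, 11 were higher and none was lower, beside 8.64% and 5.12% of all tested genes. Among the 6 at 1 FPKM or more in both, 4 were higher and none was lower. Krt7, of simple and ductal epithelium, stood at 0.0976 (control), 3.83 (0 days), 139.7 (6 days) and 260.0 FPKM (10 days) (mm10 chromosome 15, 101411043 to 101430313, plus strand). Krt8 and Krt18 pair with each other and are the first keratins of the embryo, and Krt8 was at 93.7, 102, 753 and 1129 FPKM. Krt18 was at 12.8, 119.5, 743 and 1518 FPKM. Krt19, which needs no fixed partner, was at 24.4, 57.4, 294 and 490.0 FPKM. The 4 genes were highest at 10 days. Krt20, also in both libraries, was within 2-fold, at 3.63 FPKM at 0 days and 5.09 at 6 days.

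Keratins of stratified epithelium stood at much lower levels, and those called higher were all under 1 FPKM at 0 days, so that the filter set their direction. Krt5 and Krt14, the basal pair of the skin, were at 5.78 and 3.72 FPKM at 6 days, from 0.315 and 0.0378 FPKM at 0 days. Krt15, a keratin of basal and hair follicle cells, stood at 0.0912 (control), 0.398 (0 days), 14.1 (6 days) and 19.98 FPKM (10 days). Trp63, the transcription factor that basal cells require, was listed at 0 in the control and stood at 0.0438, 1.38 and 0.654 FPKM in the ATRA libraries. Krt17 and Krt42, neighbours on chromosome 11, had been abundant in the control. Krt17 was at 45.3, 0.463, 5.41 and 4.67 FPKM. Krt42 was at 37.4, 0.405, 2.56 and 2.45 FPKM. Krt23 was at 0.437 FPKM at 0 days and 3.28 at 6 days. Krt10, of differentiated skin layers, was at 3.31 FPKM at 0 days and 3.17 at 6 days. The late skin keratins Krt1 and Krt2 stayed at 0.114 and 0.0115 FPKM at 6 days. Krt6a was at 3.66 and its near-identical copy Krt6b at 0.291 FPKM, a split that depends on how shared reads were assigned.

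Several tight junction genes were higher, while the named regulators of basolateral polarity were within 2-fold. Of 19 measured, 13 were tested and 12 reached 1 FPKM in both libraries, of which 6 were higher and none lower (median of the tested 1.12). Cldn6, a claudin of embryonic epithelium, stood at 16.8 (control), 57.2 (0 days), 325 (6 days) and 354 FPKM (10 days). Cldn7, a claudin of simple epithelia, was at 4.74, 9.68, 76.7 and 182 FPKM. Ocln, occludin, was at 0.601, 3.36, 13.05 and 17.6 FPKM. Marveld2, tricellulin, which seals the corners where 3 cells meet, was at 0.714, 2.44, 7.87 and 12.9 FPKM. Tjp3, a scaffold under the junction, was at 2.002 FPKM at 0 days and 6.28 at 6 days. Crb3, which marks the apical membrane, was at 8.23, 5.47, 32.2 and 49.6 FPKM and was higher too. Cldn8 passed through the 6-day library alone, at 1.30 FPKM. The claudin Cldn9 and the junctional adhesion molecule F11r differed by 0.34 and 0.48. The basolateral regulators Scrib, Llgl1 and Llgl2 differed by -0.32, -0.73 and -0.05. The endothelial claudin Cldn5 was at 0.901 and 0.697 FPKM.

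Desmosome and adherens junction genes differed less and in both directions. Of 16 measured, 13 were tested, all in both libraries, with 2 higher and 1 lower (median 0.49). Epcam, an adhesion molecule of epithelia and stem cells, stood at 51.8 (control), 24.3 (0 days), 77.4 (6 days) and 122 FPKM (10 days). Jup, plakoglobin, which sits in both kinds of junction, was at 32.5, 9.46, 26.1 and 36.1 FPKM. Pkp2, a desmosome plaque protein, was at 8.78 FPKM at 0 days and 18.5 at 6 days, just short of 2-fold. Dsp, desmoplakin, which ties desmosomes to keratin, went the other way, at 3.80, 29.4, 13.3 and 15.4 FPKM. Dsg2, a desmosomal cadherin, differed by 0.64 and Ctnna1, alpha-catenin, by 0.04. Desmoplakin was thus highest at 0 days. Gja1, the gap junction protein connexin 43, was at 26.2, 25.4, 86.0 and 81.7 FPKM. Gjc1, connexin 45, was lower at 6 days, at 31.2, 31.1, 12.0042 and 5.84 FPKM.

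Basement membrane genes were among the most abundant of the higher genes. Of 18 measured, 13 were tested and 12 reached 1 FPKM in both libraries, with 7 higher and none lower (median of the tested 1.403). Their summed level was 384 (control), 597 (0 days), 2722 (6 days) and 3892 FPKM (10 days). Sparc, a calcium-binding matrix protein that parietal endoderm makes in quantity, stood at 133 (control), 259 (0 days), 1862 (6 days) and 2711 FPKM (10 days) and made up most of the 6-day and 10-day sums. Lama1, Lamb1 and Lamc1 encode the 3 chains of laminin 111, the laminin of the early embryo. Lama1 was at 21.4, 22.2, 156 and 179 FPKM. Lamb1 was at 19.15, 49.2, 319.6 and 493 FPKM. Lamc1 was at 62.9, 48.9, 148 and 174 FPKM. On the log2 scale Lama1 differed by 2.76, Lamb1 by 2.67 and Lamc1 by 1.58, so that the 3 chains were all higher by 2-fold or more.

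Lamb3, a chain of the epithelial laminin found under skin, was at 0.670 FPKM at 0 days and 3.42 at 6 days, passing only through the 6-day library. Nid1, nidogen 1, which bridges laminin and collagen IV, stood at 14.5, 10.1, 44.3 and 63.7 FPKM. Its relative Nid2 was at 75.6, 81.3, 47.0 and 56.9 FPKM, so the 2 nidogens differed in opposite directions between 0 and 6 days, Nid2 short of 2-fold. Col18a1, a basement membrane collagen of vessels and epithelia, was at 38.9, 62.5, 32.5 and 30.7 FPKM and Matn2, a matrilin, differed by -0.62. Smoc1, a SPARC-related protein, was at 4.48 FPKM at 0 days and 11.9 at 6 days.

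Matrix of connective tissue was mixed. Of 32 genes measured, 27 were tested, and 7 passed only through the 6-day library. Among the 20 in both libraries 5 were higher and 1 lower. Col1a1, a chain of collagen I, stood at 0.328 (control), 1.79 (0 days), 14.6 (6 days) and 42.8 FPKM (10 days). Col3a1, the collagen of soft tissue, was near 0 before, at 0.00631, 0.123, 20.4 and 42.5 FPKM (mm10 chromosome 1, 45311538 to 45349706, plus strand). Timp3, a metalloprotease inhibitor bound to matrix, was at 0.534, 4.64, 28.3 and 38.8 FPKM. Vcan, versican, a large proteoglycan, was at 1.64, 2.67, 14.4 and 8.32 FPKM. Dcn, decorin, which coats collagen fibrils, was listed at 0 in the control and stood at 0.125, 4.83 and 13.9 FPKM afterwards. Some collagens were within 2-fold. Col2a1, of cartilage and notochord, was at 2.19, 16.05, 10.9 and 6.00 FPKM. Col6a2 was at 4.97 FPKM at 0 days and 4.57 at 6 days. Fn1, fibronectin, differed by -0.24. Mfap4, a protein of elastic fibres, was at 0.153, 3.86, 14.4 and 8.66 FPKM. Col14a1, Has2, which makes hyaluronan, Prrx1, a mesenchymal homeobox factor, and Lum, lumican, were at 4.44, 4.14, 1.99 and 1.08 FPKM at 6 days, and passed through that library alone. Twist1, a factor of mesenchyme and crest, was at 0.888, 4.70, 11.96 and 12.1 FPKM, whereas Zeb1, another factor of that state, was at 2.44, 5.72, 2.36 and 1.352 FPKM. Pdgfrb, a receptor of pericytes and mesenchyme, was at 4.98 FPKM at 0 days and 2.14 at 6 days, short of 2-fold.

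Some enzymes that process collagen, and a few genes of secretion, were higher as well. P4ha1 and P4ha2 are the catalytic subunits of the enzyme that hydroxylates prolines in collagen, and P4ha1 stood at 24.3 (control), 56.6 (0 days), 176 (6 days) and 228 FPKM (10 days). P4ha2 was at 14.2, 45.3, 129 and 181 FPKM. P4hb, their shared subunit, was at 209, 339, 581 and 763 FPKM, short of 2-fold. Adam19, a membrane protease, was at 3.64, 2.39, 13.99 and 17.8 FPKM. Of 18 genes of endoplasmic reticulum folding and secretion, all tested and in both libraries, 4 were higher and none lower (median 0.59). They were Kdelr3, which returns escaped chaperones (40.5 FPKM at 0 days and 170.1 at 6 days), Spcs1 of the signal peptidase (70.3 FPKM at 0 days and 167 at 6 days), the transcription factor Xbp1 (26.7 FPKM at 0 days and 61.2 at 6 days) and the chaperone Hsp90b1 (218 FPKM at 0 days and 438 at 6 days). Atf4 and Atf6, sensors or effectors of protein folding stress, differed by 0.01 and -0.03. Ero1l, the oxidase of disulphide formation, differed by 0.03.

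Lysosomal genes were mostly within 2-fold (21 tested in both libraries, 3 higher, 1 lower, median -0.03). The higher genes were among the most abundant: Ctsl, the protease cathepsin L, stood at 196 (control), 322 (0 days), 1294 (6 days) and 1122 FPKM (10 days). Lgmn, legumain, which activates cathepsins, was at 45.5, 87.0, 375 and 362 FPKM. Cd63, a lysosomal and exosomal membrane protein, was at 121, 329, 831 and 1207 FPKM. Ctsb, cathepsin B, was at 155 FPKM at 0 days and 117 at 6 days, within 2-fold.

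Genes of the placenta were mostly at or near 0 at 0 days, and a minority stood above 1 FPKM at 6 days, 6 of 25 in the prolactin family. Prolactins are hormones of the rodent placenta, and those 6 passed the filter through the 6-day library alone, so their direction was set by the filter. Prl2b1 was listed at 0 at 0 days and stood at 0.0581 FPKM in the control, 19.3 at 6 days and 29.4 at 10 days (mm10 chromosome 13, 27383339 to 27390846, minus strand). Prl2a1 was listed at 0 at 0 days and was at 7.38 FPKM at 6 days and 24.8 at 10 days. Prl6a1, Prl2c5, Prl8a9 and Prl7d1 were between 1.94 and 5.03 FPKM at 6 days. The 19 others were under 1 FPKM at 0 and 6 days. They include Prl3d1, a hormone of trophoblast giant cells, at 0.0484 FPKM at 6 days, and Prl3b1, placental lactogen II, at 0.669 FPKM at 6 days and 6.37 at 10 days. Sequences of this family are alike, so the split of reads among its members is uncertain.

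Some other placental genes were also near 0 at 0 days and above 1 FPKM at 6 days. Tpbpa, a marker of the spongiotrophoblast, was listed at 0 at 0 days and stood at 19.21 FPKM at 6 days and 28.0 at 10 days. Ctsj, a cathepsin of the placenta, was listed at 0, then at 8.91 and 43.1 FPKM. Serpinb9b, a granzyme inhibitor, was at 2.78 (control), 1.18 (0 days), 22.9 (6 days) and 28.8 FPKM (10 days), and its copies Serpinb9e, Serpinb9f and Serpinb9g were listed at 0 at 0 days and reached 11.97, 4.17 and 3.87 FPKM by the 6-day library. These 3 copies were lower at 10 days, at 5.54, 1.801 and 1.63 FPKM, unlike the prolactins Prl2b1 and Prl2a1. Hand1, a factor of giant cells and of the heart, was at 0.0222, 0.123, 9.44 and 17.5 FPKM. Synb, the syncytin of the labyrinth, was listed at 0 in both libraries, and Pappa2, a placental protease, was at 0.429 FPKM at 6 days. Dlx3, a homeobox factor of placenta and skin, was at 7.38 FPKM at 0 days and 4.88 at 6 days. Ctsq, another placental cathepsin, was at 0.0335 FPKM at 0 days and 1.44 at 6 days. Tfeb, a factor of lysosome genes that the placenta needs, was at 15.0, 4.17, 12.4 and 17.6 FPKM.

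Over the whole family of serpins, which inhibit proteases, 17 of 51 were tested and 10 of those passed only through the 6-day library. Of the 7 in both, 5 were higher and 1 was lower. Serpinb6a, an intracellular serpin of many tissues, stood at 79.9 (control), 41.1 (0 days), 137 (6 days) and 178 FPKM (10 days). Serpine2, protease nexin, was at 6.13, 19.7, 47.7 and 49.4 FPKM. Serpinb6c, a near copy of Serpinb6a, was at 19.9, 1.39, 10.8 and 13.8 FPKM, and reads may be shared between them. Serpinb6b and Serpinb8 passed through the 6-day library alone, at 4.33 and 1.22 FPKM. Of the 9 Spink genes Spink1 alone was tested, and the next highest at 6 days was Spink10, at 0.0803 FPKM.

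Small groups at the cell surface had higher members. In the Ly6 family, small proteins tethered to the membrane, 10 of 21 were tested and 6 of them passed through the 6-day library alone. Psca, a family member of epithelia, stood at 1.43 (control), 5.57 (0 days), 12.7 (6 days) and 151 FPKM (10 days). Ly6a, the stem cell antigen Sca-1, was at 34.7, 0.501, 5.28 and 15.6 FPKM. Ly6h, Ly6g6e and Lypd2 were at 8.99, 4.67 and 3.45 FPKM at 6 days and under 1 FPKM at 0 days. Ly6c1 was listed at 0 at 0 days and was at 1.89 FPKM at 6 days. Ly6k, a testis form, was lower, at 8.47 FPKM at 0 days and 2.33 at 6 days. Anxa8, an annexin, was at 3.39, 0.884, 7.66 and 10.7 FPKM, while Anxa6, Anxa7 and Anxa11 differed by 0.02, 0.14 and -0.20. No integrin was called among 6 tested, the largest difference being 0.94 in Itgb5, a receptor subunit for vitronectin (18.3 FPKM at 0 days and 35.8 at 6 days).

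Muscle genes gave a split picture. Of 27 measured, 8 were tested and 5 reached 1 FPKM in both libraries, with 2 higher and 1 lower. Tnnc1, the troponin C of heart and slow muscle, stood at 1.54 (control), 2.05 (0 days), 45.7 (6 days) and 217 FPKM (10 days). Csrp2, a LIM protein of smooth muscle, was at 386, 64.4, 212 and 341 FPKM and was highest in the control. Tnni1, a troponin I of slow muscle, was at 0.156, 0.393, 2.12 and 8.77 FPKM. Isl1, a factor of heart precursors and motor neurons, was at 0.0964, 0.0869, 1.996 and 0.678 FPKM. The sarcomere genes Myh6, Myh7 and Tnnt2 were at 0.235, 0.795 and 0.911 FPKM at 6 days, and at 0.624, 3.33 and 3.09 FPKM at 10 days. Myl7, an atrial light chain, was at 12.7, 10.2, 8.57 and 65.7 FPKM. Des, desmin, was lower, at 14.4, 23.8, 10.6 and 20.4 FPKM. In smooth muscle and contractile genes, 9 tested, Cnn2, a calponin of many cells, was higher (43.7 FPKM at 0 days and 94.3 at 6 days) and Des lower. The myogenic factor Myog was listed at 0 in both libraries.

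Factors of the primitive streak and mesoderm had 21 of 27 members tested, and 12 of them passed only through the 6-day library and 3 only through the 0-day library. Among the 6 in both, 2 were higher and 2 lower. The median of all 21 was 1.13, which became -0.46 among members at 5 FPKM or more. T, brachyury, of the streak and notochord, was at 0.0392 (control), 0.0176 (0 days), 5.44 (6 days) and 0.776 FPKM (10 days). Mixl1, a streak homeobox gene, was at 0.154, 0.0770, 1.36 and 0.252 FPKM. Both were highest at 6 days. Wnt3, Foxf2, Foxj1, Tcf21, Six2, Prrx1 and Isl1 also passed through the 6-day library alone, between 1.33 and 3.00 FPKM at 6 days. Cited2, a coactivator that blocks HIF1, stood at 44.6, 38.0, 160.4 and 199.8 FPKM. Msx2, a homeobox factor downstream of BMP, was at 0.470, 4.26, 13.5 and 14.2 FPKM. Nodal, the ligand that starts the streak, was lower at 33.7, 24.7, 6.01 and 4.09 FPKM. Meox1, of the somites, was at 0.175, 7.85, 0.546 and 0.180 FPKM. Meox1 was thus present at 0 days alone at more than 2 FPKM.

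Genes of blood and vessels were few. Of 15 measured, 7 were tested, and 4 reached 1 FPKM in both libraries with 2 higher and none lower. Pecam1, an adhesion molecule of endothelium and of stem cells, was at 21.1 (control), 1.37 (0 days), 4.15 (6 days) and 2.05 FPKM (10 days). Gp1bb, of platelets, was at 0.267, 2.95, 9.10 and 10.8 FPKM. Runx1, the factor of blood formation, was at 0.593, 0.388, 2.15 and 1.95 FPKM. Cd34 was at 2.97 FPKM at 0 days and 0.597 at 6 days, and Flt4, a vessel receptor, at 2.56 FPKM at 0 days and 0.732 at 6 days. Runx1 passed through the 6-day library alone and Cd34 and Flt4 through the 0-day library alone, so the filter set their direction. Embryonic globin Hba-x was at 0.402 FPKM at 6 days.

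Leukocyte markers were mostly at or near 0. The pan-leukocyte marker Ptprc was at 0.00650 and 0.0332 FPKM, Cd48 was listed at 0 in both, and 13 of the 19 markers were below the filter. The summed level of the list was 581 FPKM at 0 days and 949 at 6 days, nearly all of it Cd68, at 1455 (control), 572 (0 days), 919.9 (6 days) and 736 FPKM (10 days). Lcp1, an actin bundler of leukocytes, was nonetheless at 0.184, 3.57, 17.2 and 16.1 FPKM. Fcgr3, an antibody receptor, was at 0.409, 1.45, 5.86 and 13.1 FPKM. Beside these stood 3 chemokines that recruit leukocytes. Ccl2 was at 0.133, 0.767, 14.8 and 39.0 FPKM. Ccl7 was at 0.131, 0.124, 2.70 and 17.2 FPKM. Ccl20 was at 0.199, 0.243, 4.56 and 62.1 FPKM. The other 10 CC chemokines were under 1 FPKM, and these 3 passed through the 6-day library alone. Cd14, a receptor of macrophages that other cells also make, was at 0.414 FPKM at 0 days and 2.31 at 6 days. The part of leukocytes in the chemokine values was not tested.

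Neuronal genes were higher in part. Of 36 measured, 21 were tested, and among the 17 in both libraries 6 were higher and 1 lower (median of the tested 0.34). Tagln3, a neuronal actin-binding protein, stood at 2.10 (control), 1.78 (0 days), 15.7 (6 days) and 5.87 FPKM (10 days). Nsg2, a vesicle protein of young neurons, was at 0.310, 3.13, 18.0 and 7.19 FPKM. Map2, of dendrites, was at 0.964, 1.82, 4.74 and 1.02 FPKM. Rtn1, a reticulon, was at 1.97, 3.44, 10.7 and 10.4 FPKM. Stmn4, a microtubule regulator, was listed at 0 in the control and stood at 0.736, 10.2 and 10.1 FPKM. Prph, peripherin, a filament of peripheral neurons, went the other way at 13.4, 32.7, 3.56 and 8.45 FPKM. Ppp1r1b, of striatal neurons, was at 2.69 FPKM at 0 days and 0.342 at 6 days. It passed through the 0-day library alone, so the filter set its direction. Cacng4, a subunit of glutamate receptors, was at 0.444 FPKM at 0 days and 3.35 at 6 days. Dpysl3, of growing axons, was at 1.796, 3.18, 9.10 and 4.68 FPKM. Cacng4 and Stmn4 passed through the 6-day library alone. Genes of mature neurons were low. Rbfox3, the antigen NeuN, was at 0.572 FPKM at 6 days, Syt1, of synaptic vesicles, at 0.388 FPKM and Nefm, the medium neurofilament, at 0.224 FPKM. Gap43 and Mapt, both of growing axons, differed by 0.40 and -0.23. Among 7 tested genes of neuronal subtypes, Ebf1, of several neuron classes, was lower at 3.40 FPKM at 0 days and 1.18 at 6 days, and Sst, somatostatin, differed by 0.78. Of 9 tested genes of synapse and excitability none was higher and 2 were lower, Scn8a, a sodium channel (3.19 FPKM at 0 days and 1.07 at 6 days), and Syt14 (4.63 FPKM at 0 days and 1.70 at 6 days).

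Tubulins showed a like division. Of 10 tested, all in both libraries, 2 were higher. Tubb2b, a beta-tubulin of neurons, stood at 81.7 (control), 14.05 (0 days), 88.6 (6 days) and 59.4 FPKM (10 days). Tuba1a, an alpha-tubulin of neurons, was at 144, 81.7, 378 and 210.3 FPKM. The widely expressed Tubb5, Tuba1b and Tuba1c differed by 0.70, 0.78 and 0.72. Tuba1a, Tuba1b and Tuba1c have near-identical coding sequences, so the split among them is uncertain.

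Neural progenitor and proneural genes were mixed. Of the 11 progenitor genes in both libraries 1 was higher and 1 lower, and of the 13 proneural and Notch genes in both 2 were higher and none lower. Dach1, a factor of many progenitors, was lower, at 0.0159 (control), 15.1 (0 days), 4.59 (6 days) and 0.958 FPKM (10 days), and so was Ednrb, the endothelin receptor, at 0.129, 30.4, 17.1 and 6.57 FPKM, short of 2-fold. Fabp7, described above, was the higher one. Pou3f3, Rfx4 and Sox21, factors of neural precursors, were at 2.76, 1.89 and 1.74 FPKM at 6 days and under 1 FPKM at 0 days. Sox11 and Sox4, which follow cell cycle exit in neurons, differed by -0.06 and -0.74. Hes6, which promotes neuron formation, stood at 13.5, 12.4, 33.4 and 27.8 FPKM. Id4, an inhibitor of proneural factors, was at 4.60, 1.05, 5.76 and 6.10 FPKM. Some proneural genes were highest at 6 days at low levels. Nhlh1 was listed at 0 in the control and stood at 0.108, 2.79 and 0.557 FPKM in the ATRA libraries. Olig3, of dorsal cord and hindbrain, was at 0.103, 0.0753, 2.12 and 0.186 FPKM. Dll1, a Notch ligand, was at 2.63 FPKM at 0 days and 5.804 at 6 days, short of 2-fold.

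Few region factors of the brain were called among those in both libraries. Of 25 measured, 8 were tested, and of the 4 in both libraries none was higher and 1 lower. Otx2, of forebrain and midbrain, passed only through the 6-day library and stood at 5.89 (control), 0.447 (0 days), 6.09 (6 days) and 4.47 FPKM (10 days). Gbx2, of the anterior hindbrain, was at 26.5, 10.1, 1.00 and 0.799 FPKM. In the embryo these 2 repress each other at the border of midbrain and hindbrain. Wnt1, the ligand made at that border, passed through the 6-day library alone and was listed at 0 in the control and stood at 0.636, 6.72 and 2.40 FPKM. Egr2, Krox20, which marks 2 hindbrain segments, passed through the 0-day library alone, at 1.12, 2.23, 0.130 and 0.170 FPKM. Irx2 and Epha4 differed by 0.46 and -0.02.

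Crest and glial genes were few. Of the 10 crest genes in both libraries 2 were higher, Msx2 and Twist1, and none was lower. Sox10, of crest and glia, was at 0.221 (control), 1.92 (0 days), 0.183 (6 days) and 0.0734 FPKM (10 days). It passed through the 0-day library alone. Sox9 was at 0.0380, 5.32, 2.78 and 1.87 FPKM, short of 2-fold. Pax3, of dorsal cord and crest, was at 0.0209, 0.423, 1.97 and 0.433 FPKM. Tfap2b was at 0.0226, 0.323, 1.505 and 0.401 FPKM. Both were highest at 6 days. Glul, glutamine synthetase, a marker of astrocytes that liver also makes, was at 183, 132, 276 and 318 FPKM.

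Many Hox genes and some other targets of retinoic acid were lower. In paralog groups 1 to 4 all 3 Hox genes in both libraries were lower, Hoxb1 passed through the 0-day library alone, and 3 of 7 in groups 5 to 9 were lower with 1 higher. Hoxb1, a direct target of the receptors, stood at 0.0189 (control), 31.5 (0 days), 0.480 (6 days) and 0.181 FPKM (10 days) (mm10 chromosome 11, 96365752 to 96368256, plus strand) and was 65.6-fold lower at 6 than at 0 days by the ratio of FPKM. Hoxb2 was at 0.0503, 52.4, 10.7 and 10.1 FPKM. Hoxc4 was at 0.317, 62.4, 10.7 and 5.94 FPKM. Hoxb3 was at 0.105, 40.6, 11.4 and 7.75 FPKM. Hoxc5 was at 0.0426, 26.5, 5.36 and 2.04 FPKM. Hoxb5 was at 0.0294, 56.2, 11.3 and 8.44 FPKM. Hoxb5os, its antisense partner, was at 0.0812, 47.1, 8.39 and 5.35 FPKM. The strand setting is not given in sources used here, so their reads cannot be told apart. Hoxb7, Hoxc8 and Hoxc9 were within 2-fold, with differences of -0.45, -0.47 and -0.04. Hoxb8 was lower, at 0.0176, 37.8, 12.3 and 6.24 FPKM, and Hoxc6 was higher, at 0.0912, 4.60, 14.9 and 6.83 FPKM. The 11 genes of groups 1 to 9 were all under 1 FPKM in the control, and at 10 days 10 of them, all but Hoxc9, were lower than at 6 days. Of groups 10 to 13, Hoxb13 passed through the 0-day library alone, at 0.200, 3.46, 0.253 and 0.497 FPKM. Hoxc13 was at 0.506 FPKM at 0 days and 1.46 at 6 days.

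Retinoic acid receptors, cofactors and enzymes had 16 of 18 members tested, and of the 15 in both libraries 7 were lower and 1 was higher (median of the tested -0.95). Rarb, a receptor that the receptors themselves induce, stood at 0.630 (control), 16.9 (0 days), 3.97 (6 days) and 2.92 FPKM (10 days). Rarg was at 79.5, 42.4, 12.4 and 11.2 FPKM. Rara, the broadly expressed receptor, was at 10.6, 20.8, 11.8 and 13.6 FPKM, short of 2-fold. The corepressors and coactivators Nrip1 (15.1 FPKM at 0 days and 2.70 at 6 days), Ncoa1 (5.79 FPKM at 0 days and 1.45 at 6 days) and Ncor1 (24.4 FPKM at 0 days and 10.9 at 6 days) were lower. Enzymes that interconvert retinol and retinal differed in direction. Dhrs4 was higher, at 8.90 FPKM at 0 days and 26.1 at 6 days. Rdh10, which makes retinal in the embryo, was at 7.26 FPKM at 0 days and 14.6 at 6 days, short of 2-fold. Rdh12, a retinal reductase, was lower, at 4.01 FPKM at 0 days and 1.27 at 6 days. Aldh5a1, an aldehyde dehydrogenase of GABA breakdown, was lower too, at 6.56 FPKM at 0 days and 2.65 at 6 days.

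The promoter of Rarb is shown because it is the classical site through which retinoic acid receptors act on their own gene. RefSeq promoters of GRCm38.p6 (mm10), 250 bases before to 50 bases after each start, were searched on both strands for the direct repeat 5 retinoic acid response element, 2 receptor half-sites 5 bases apart. It was found in 32 of 32851 promoters (0.0974%) and in 1 of the 15 tested genes of the retinoic acid and Hox lists that had a promoter, Rarb. The run lies at chr14:16575488-16575554, is given on the minus strand, that of the gene, and has the element in capitals, 53 to 37 bases before the start.
Rarb: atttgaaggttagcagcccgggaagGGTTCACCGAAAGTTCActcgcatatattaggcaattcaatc
The match is a description of these letters, and its absence from other windows says nothing about the receptors there.

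Germ cell genes were lower in most cases. Of 22 measured, 14 were tested, of which 9 were lower and none higher, beside 5.12% and 8.64% of all tested genes (median of the tested -1.25). All 9 were among the 11 that reached 1 FPKM in both libraries. Dazl, which binds RNA in germ cells, stood at 2.80 (control), 22.2 (0 days), 1.18 (6 days) and 0.474 FPKM (10 days) (mm10 chromosome 17, 50279395 to 50293636, minus strand). Rec8, a meiotic cohesin subunit, was at 3.57, 87.1, 11.5 and 14.1 FPKM. Dmc1, the recombinase of meiosis, was at 12.5, 16.3, 3.11 and 3.44 FPKM. Sycp3, of the synaptonemal complex, was at 8.61, 19.9, 8.32 and 7.35 FPKM. Ddx4, the germ cell helicase Vasa, was at 4.63, 18.1, 5.10 and 3.08 FPKM. The piRNA pathway genes Mov10l1 (11.9 FPKM at 0 days and 2.07 at 6 days), Mael (12.7 FPKM at 0 days and 3.20 at 6 days) and Piwil2 (3.03 FPKM at 0 days and 1.01 at 6 days) were lower as well. Tex19.1, expressed in germ cells and placenta, was at 22.4, 53.6, 20.6 and 17.4 FPKM. The 2 factors that specify germ cells were not lower. Prdm1 differed by -0.10, and Prdm14 passed the filter only through the 6-day library, at 9.64, 0.456, 1.37 and 1.04 FPKM.

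Pluripotency genes were mostly within 2-fold. All 16 were tested, and of the 13 in both libraries 2 were higher and 1 lower (median of the 16, 0.14). Pou5f1, Oct4, stood at 1241 (control), 97.4 (0 days), 149.96 (6 days) and 141 FPKM (10 days). Esrrb, of the naive state, was at 129, 3.75, 6.78 and 4.85 FPKM. Klf5 was at 248, 30.8, 32.5 and 38.2 FPKM. Tcl1, a cofactor of Akt, resembled Tdh, at 101, 0.905, 9.89 and 8.77 FPKM. Mycn, a transcription factor of the Myc family, and Fbxo15, a target of Oct4, were higher. Mycn was at 18.3, 9.44, 21.7 and 21.9 FPKM. Fbxo15 was at 52.3, 8.67, 19.9 and 19.6 FPKM. Jarid2, a Polycomb cofactor, was lower, at 53.3, 24.03, 10.6 and 7.59 FPKM. The primed epiblast list had 11 genes, all tested, and 8 were in both libraries with 1 higher, Etv5, and 2 lower, Nodal and Lefty1. The 6-day level of Pou5f1, Esrrb, Klf5, Tcl1, Fbxo15 and Jarid2 was under that of the control.

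MHC and antigen processing genes were lower in part. Of 28 measured, 23 were tested, and of the 18 in both libraries 7 were lower and none higher (median of the tested -0.89). The other 5 passed only through the 0-day library, so the filter set their direction. Psmb8 and Psmb9 are subunits of the immunoproteasome, and Psmb8 stood at 0.0337 (control), 10.6 (0 days), 1.87 (6 days) and 3.87 FPKM (10 days). Psmb9 was at 2.58, 6.05, 1.69 and 3.48 FPKM. Tap2, a chain of the peptide transporter, was at 0.450, 9.20, 1.71 and 4.86 FPKM, while its partner Tap1 was at 2.49, 10.4, 7.20 and 13.3 FPKM, short of 2-fold. The classical class I gene H2-K1 was at 10.5, 68.9, 62.2 and 187 FPKM. The other, H2-D1, was at 8.43, 32.9, 44.5 and 107 FPKM. Both were within 2-fold between 0 and 6 days and highest at 10 days. In the Q region of class I, H2-Q7 and H2-Q8 were called lower, H2-Q8 through the 0-day library alone. H2-Q7 was at 0.255, 9.73, 1.92 and 2.94 FPKM. H2-Q8 was at 0.118, 6.55, 0.505 and 1.04 FPKM, and these near-identical genes may share reads. H2-M3, a class I gene that presents formylated peptides, was at 0.467, 5.401, 0.783 and 2.07 FPKM and passed through the 0-day library alone. Raet1a and H60b encode ligands of the natural killer receptor NKG2D. Raet1a was at 4.42, 71.3, 6.14 and 5.04 FPKM. H60b was at 2.30, 5.58, 0.276 and 0.318 FPKM and passed through the 0-day library alone. Ulbp1, another such ligand, differed by -0.02. The class II chain H2-Ab1 was at 7.51 FPKM at 0 days and 2.81 at 6 days. H2-DMa and H2-Oa, which load class II, were at 0.453 and 1.54 FPKM at 6 days, from 2.09 and 4.75 FPKM at 0 days. H2-DMa passed through the 0-day library alone.

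Interferon genes were mixed. Of 32 measured, 23 were tested, and of the 21 in both libraries 4 were lower and 2 higher (median of the tested -0.41). Irf1, a factor induced by interferon gamma, stood at 10.2 (control), 40.6 (0 days), 11.4 (6 days) and 10.7 FPKM (10 days). Igtp and Irgm2, GTPases that attack vacuoles of parasites, were called lower. Igtp was at 0.588, 6.49, 1.42 and 2.55 FPKM. Irgm2 was at 0.340, 3.87, 0.850 and 0.977 FPKM and passed through the 0-day library alone. The 2 loci overlap in GENCODE M21, so reads may be shared. Parp9 and Dtx3l work as a pair. Parp9 was at 9.20 FPKM at 0 days and 2.91 at 6 days. Dtx3l was at 4.17 FPKM at 0 days and 1.05 at 6 days. Parp14, of the same family as Parp9, was at 2.69 FPKM at 0 days and 0.753 at 6 days, passing through the 0-day library alone. The receptor chain Ifngr2 was higher, at 6.57 FPKM at 0 days and 18.8 at 6 days. Il10rb, shared by interferon lambda and interleukin 10 receptors, was at 3.41 FPKM at 0 days and 8.32 at 6 days. Stat2, which carries the signal of type I interferon to the nucleus, differed by -0.17.

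Promoters of Igtp and Irgm2 are shown because both genes carry an interferon-type element and were called lower. For Irgm2 the filter set that direction. A pair of GAAA copies 2 bases apart, the core bound by interferon regulatory factors, was found on either strand in 1131 of 32851 promoters (3.44%) and in 9 of the 34 tested MHC and interferon genes with a promoter. Besides Igtp and Irgm2 these were H2-T22, H2-T23, Irgm1, Socs1, Stat2, Eif2ak2 and Psme1. The Igtp run is chr11:58199497-58199555 and the Irgm2 run chr11:58214888-58214947, both on the plus strand of mm10 from RefSeq, with the match in capitals.
Igtp: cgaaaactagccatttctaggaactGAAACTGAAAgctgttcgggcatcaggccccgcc
Irgm2: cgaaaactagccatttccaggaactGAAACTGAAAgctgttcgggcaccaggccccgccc
The flanking letters are nearly the same in both genes. Of the 9 genes with a match only Igtp and Irgm2, whose loci overlap, were called lower at 6 days. The others were within 2-fold, from -0.66 in Irgm1 to 0.91 in H2-T23, with Socs1 at -0.04.

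Immediate early genes, which cells switch on within minutes of a stimulus, differed in both directions. Of 28 tested, 24 were in both libraries and 6 of these were lower and 4 higher. Egr1 stood at 116 (control), 129 (0 days), 6.84 (6 days) and 10.4 FPKM (10 days). Fos was at 46.0, 72.2, 5.35 and 12.9985 FPKM. Klf10 was at 63.0, 51.3, 18.8 and 21.9 FPKM. Zfp36l1, which destabilises messenger RNA, was at 70.3, 116, 46.5 and 53.0 FPKM. Arc was at 62.5, 5.65, 1.91 and 2.18 FPKM. Egr3 was at 0.787, 2.34, 0.2997 and 0.281 FPKM and passed through the 0-day library alone. Sgk1, a kinase induced by serum and steroids, was higher, at 68.1, 5.23, 20.4 and 16.1 FPKM, and so was Ier3, at 3.42, 15.3, 45.7 and 112 FPKM. Btg1 and Gadd45b, which slow growth, were at 42.5 and 21.8 FPKM at 6 days, from 20.03 and 10.3 FPKM at 0 days. Ptgs2, cyclooxygenase 2, was at 0.183, 0.100, 4.20 and 4.88 FPKM, and Myc differed by 0.42. Fos and Egr1 were thus as high in the control as at 0 days to within a factor of 2, and low at 6 and 10 days.

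Promoters of Egr2 are shown because serum response factor drives genes of this class through the CArG box. That element was found in 535 of 32851 promoters (1.63%), and among 20 tested immediate early genes with a RefSeq promoter in 1, Egr2, which has it in the windows of 4 annotated starts, at 2 positions. The runs are chr10:67537469-67537528 and chr10:67537772-67537831, plus strand, with the box in capitals, each 72 to 63 bases before a start.
Egr2 first position: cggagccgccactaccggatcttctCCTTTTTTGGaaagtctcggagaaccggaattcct
Egr2 second position: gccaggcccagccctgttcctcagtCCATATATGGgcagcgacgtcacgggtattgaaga
Egr2 itself was low in all 4 libraries, with 2.23 FPKM at 0 days the highest.

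Signalling genes were compared by pathway. In hedgehog signalling 8 of 9 genes were tested and 7 were in both libraries, with 1 higher and 3 lower. The ligand Ihh passed through the 6-day library alone. Gas1, a co-receptor, was lower at 0.843 (control), 88.7 (0 days), 12.1 (6 days) and 10.7 FPKM (10 days). The transcription factor Gli2 was at 5.15, 4.04, 1.21 and 0.769 FPKM. Gli3, its relative, was at 0.464, 3.94, 1.36 and 0.644 FPKM. Gli1 and Ptch1, the receptor, are targets of the pathway. Gli1 was higher, at 2.80, 1.30, 3.82 and 1.22 FPKM. Ptch1 was within 2-fold, at 6.12, 9.10, 7.38 and 4.76 FPKM.

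Wnt genes had 28 of 33 members tested. Of the 19 in both libraries none was higher and 1 was lower, while 9 passed only through the 6-day library. Fzd8, a receptor, was lower at 0.826 (control), 11.9 (0 days), 2.84 (6 days) and 2.20 FPKM (10 days). Wnt7b, a ligand of epithelia, was at 0.146, 0.695, 6.599 and 16.2 FPKM. Wnt6, made by trophectoderm and primitive endoderm, was at 10.9, 0.312, 2.89 and 9.44 FPKM. Wnt1, Wnt3, Wnt10a, Wnt10b, Wif1, an inhibitor, Rspo3, an enhancer, and Rnf43, which removes receptors, make up the rest of the 9, between 1.33 and 6.72 FPKM at 6 days. The feedback genes Axin2 and Notum, which the pathway itself induces, differed by 0.81 and 0.60. Axin2 was highest at 6 days (1.30, 2.21, 4.62 and 1.795 FPKM).

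In the TGF-beta, BMP and activin list 30 of 37 genes were tested, and of the 25 in both 3 were higher and 2 lower (median of the tested 0.41). The largest was in Fst, described above. Nog, noggin, which blocks BMP, was at 0.829 (control), 1.01 (0 days), 11.3 (6 days) and 24.2 FPKM (10 days). Id4, named above, was the third higher gene among those in both. Tgfb2, a ligand, was at 0.0720, 0.459, 3.40 and 2.51 FPKM and passed through the 6-day library alone. Gdf10, Fstl3 and Cfc1 did so too, at 3.53, 3.10 and 1.98 FPKM at 6 days. Nodal and Lefty1 were the lower genes. Bmp4 was at 51.3, 6.25, 8.77 and 11.2 FPKM, and Smad7, a feedback inhibitor, differed by -0.57.

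In the fibroblast and epidermal growth factor list 22 of 27 genes were tested, and of the 17 in both 4 were higher and 2 lower. Etv4, a factor switched on by FGF, was at 93.1 (control), 0.949 (0 days), 7.61 (6 days) and 6.08 FPKM (10 days). Etv5, its relative, was at 114, 8.89, 18.8 and 15.1 FPKM. Spry4, a feedback inhibitor, was at 67.4, 1.42, 4.09 and 4.38 FPKM. Hbegf, an epidermal growth factor, was at 49.8, 7.30, 18.4 and 34.3 FPKM. These 4 had been highest in the control. Etv4 passed through the 6-day library alone, and the remaining higher gene in both was Fgfr4, given with endoderm. Spred2, another inhibitor, was lower, at 18.6 FPKM at 0 days and 7.38 at 6 days. So was Dusp1, at 49.2 FPKM at 0 days and 23.9 at 6 days. Egfr, a receptor, was at 0.635 FPKM at 0 days and 2.50 at 6 days and passed through the 6-day library alone. Dusp6 differed by -0.67.

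The insulin-like growth factor list held 14 tested genes, with 2 higher and 1 lower among 9 in both. Igfbp2, a binding protein, was lower, at 121 (control), 587 (0 days), 131 (6 days) and 218 FPKM (10 days), and Igfbp4 and Igfbp5 differed by 0.33 and 0.00. Igfbp6 was higher, at 1.31, 1.70, 4.46 and 19.4 FPKM, and so was Stc2, stanniocalcin 2, at 7.43, 2.71, 9.21 and 7.52 FPKM. In LIF and gp130 signalling 1 of 9 was higher, Socs2, at 35.9, 3.06, 9.56 and 5.56 FPKM, and Stat3 differed by -0.72. Imprinted genes gave 17 tested, with none called among the 14 in both libraries. Dio3, a thyroid hormone deiodinase, was at 0.914 FPKM at 0 days and 3.71 at 6 days. Dlk1 was at 0.238, 41.9, 29.9 and 66.8 FPKM. Meg3 was at 39.2, 204, 189 and 297 FPKM.

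Metabolic genes included a higher sterol group. Of 17 tested genes of cholesterol and fatty acid synthesis, all in both libraries, 5 were higher and none lower (median 0.80). Idi1 was at 55.9 (control), 8.35 (0 days), 30.0 (6 days) and 20.5 FPKM (10 days). Hmgcs1 was at 78.7, 25.8, 77.0 and 61.9 FPKM. Sqle was at 52.9, 17.8, 48.3 and 51.1 FPKM. Fdft1 was at 51.5, 23.6, 50.7 and 56.4 FPKM. These 4 act between acetyl-CoA and the first sterol, and each was lowest at 0 days. The genes of fatty acid synthesis were not higher, with differences of 0.08 in Fasn and 0.06 in Acly, and Acaca, the first committed step, was below its 0-day level but within 2-fold. Srebf2, the factor that drives sterol genes, differed by 0.49.

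The promoter of Hmgcs1 is shown because it is a known target of that factor. The letters TCACNCCAC, a sterol regulatory element, were found on either strand in 408 of 32851 promoters (1.24%) and in 1 of 13 tested genes of the list with a RefSeq promoter. The run is chr13:119690189-119690247 of mm10, plus strand, with the match in capitals, 137 to 129 bases before the start.
Hmgcs1: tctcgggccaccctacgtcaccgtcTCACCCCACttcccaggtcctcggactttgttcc
No other of those 13 genes held these letters in the window searched.

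Hypoxia and glycolysis genes were mostly within 2-fold (21 tested, 4 higher and 1 lower among the 20 in both, median -0.25). Epas1, HIF2 alpha, stood at 13.3 (control), 6.19 (0 days), 48.6 (6 days) and 62.7 FPKM (10 days). Ndufa4l2, which hypoxia induces, was lower at 52.7, 86.0, 14.1 and 21.3 FPKM, and Vegfa and Hif1a differed by -0.54 and -0.21. Besides Epas1, the higher genes were P4ha1, P4ha2 and Stc2, named above with collagen and growth factor genes.

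Most mitochondrial genes differed by small positive values, whereas 2835 of all 5602 tested genes had a positive difference. Of 35 mitochondrial ribosomal proteins, all tested and in both libraries, 33 had a positive difference (median 0.51) and 2 were called, Mrps6 at 33.1 FPKM at 0 days and 71.5 at 6 days and Mrpl36 at 20.1 FPKM at 0 days and 41.8 at 6 days. Of 44 respiratory chain genes 37 had a positive difference (median 0.35), with Uqcrq, of complex III, called higher at 422 (control), 133 (0 days), 350.5 (6 days) and 525 FPKM (10 days). Ndufa4l2, given with hypoxia genes and counted here by its symbol, was lower (-2.53). Cox8c, a testis form, was listed at 0 at 6 days and stood at 1.56 FPKM at 0 days. Cytosolic ribosomal proteins had a median of 0.08 over 34 genes. Rpl10l, a testis copy of Rpl10, was the one lower, at 38.7, 19.06, 5.67 and 3.69 FPKM. For comparison, 7 common reference genes had a median of 0.33, with Ppia at 2183 FPKM at 0 days and 3663 at 6 days and Sdha at 95.8 FPKM at 0 days and 72.6 at 6 days.

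Genes of nuclear factors had mostly negative differences. Of 122 tested Zfp zinc finger genes 30 had a positive difference, beside 2835 of all 5602 tested genes. Their median was -0.28. The 2 called lower, a smaller share than the 5.12% of all tested genes, were Zfp36l1 and Zfp318 (4.91 FPKM at 0 days and 1.53 at 6 days). In the DNA methylation and Polycomb list 2 of 18 were lower and none higher (median -0.38). Cbx6 was at 40.0 (control), 34.5 (0 days), 12.7 (6 days) and 16.1 FPKM (10 days), and Suz12, of Polycomb repressive complex 2, and Dnmt3a, a DNA methyltransferase, differed by -0.89 and -0.95. Replication and mitosis genes had a median of 0.09 over 34. Tk1, thymidine kinase, was higher at 98.5, 15.6, 43.9 and 34.9 FPKM. Rpa1, of the single-strand binding complex, was lower, at 153, 126, 43.5 and 36.6 FPKM. Among Trp53 targets, Cdkn1a, an inhibitor of the cell cycle, was at 64.9, 122, 182 and 233 FPKM, short of 2-fold. Of the 17 in both libraries 1 was called, Dcxr, at 14.9 FPKM at 0 days and 31.0 at 6 days. None of 20 tested histone cluster 1 genes was called.

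Transporters followed no common direction. Of 151 solute carriers 86 were tested, and 5 were higher and 6 lower, beside 8.64% and 5.12% of all tested genes (median of the tested 0.01). Among the 72 in both libraries 4 were higher and 3 lower. Slc9a3r1, a scaffold under microvilli rather than a transporter, stood at 68.0 (control), 17.1 (0 days), 97.6 (6 days) and 104 FPKM (10 days). Slc7a7, of basic amino acids, was at 59.8, 10.8, 26.6 and 21.3 FPKM. Slc37a1, Slc38a1 and Slc6a15 were higher as well, at 6.26, 64.1 and 3.22 FPKM at 6 days. Slc6a15 passed through the 6-day library alone. Slc4a7 was lower, at 10.0 FPKM at 0 days and 4.19 at 6 days. Slc25a21, Slc47a1 and Slc47a2 were at 1.90, 1.53 and 1.56 FPKM at 0 days and 0.399, 0.114 and 0.213 at 6 days. They passed through the 0-day library alone, so the filter set their direction. Slc25a37, mitoferrin, which brings iron into mitochondria, was lower at 10.96, 16.6, 6.04 and 8.80 FPKM, and so was Slc48a1, a haem transporter, at 15.8, 28.6, 11.9 and 17.6 FPKM.

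**Figure D4:**
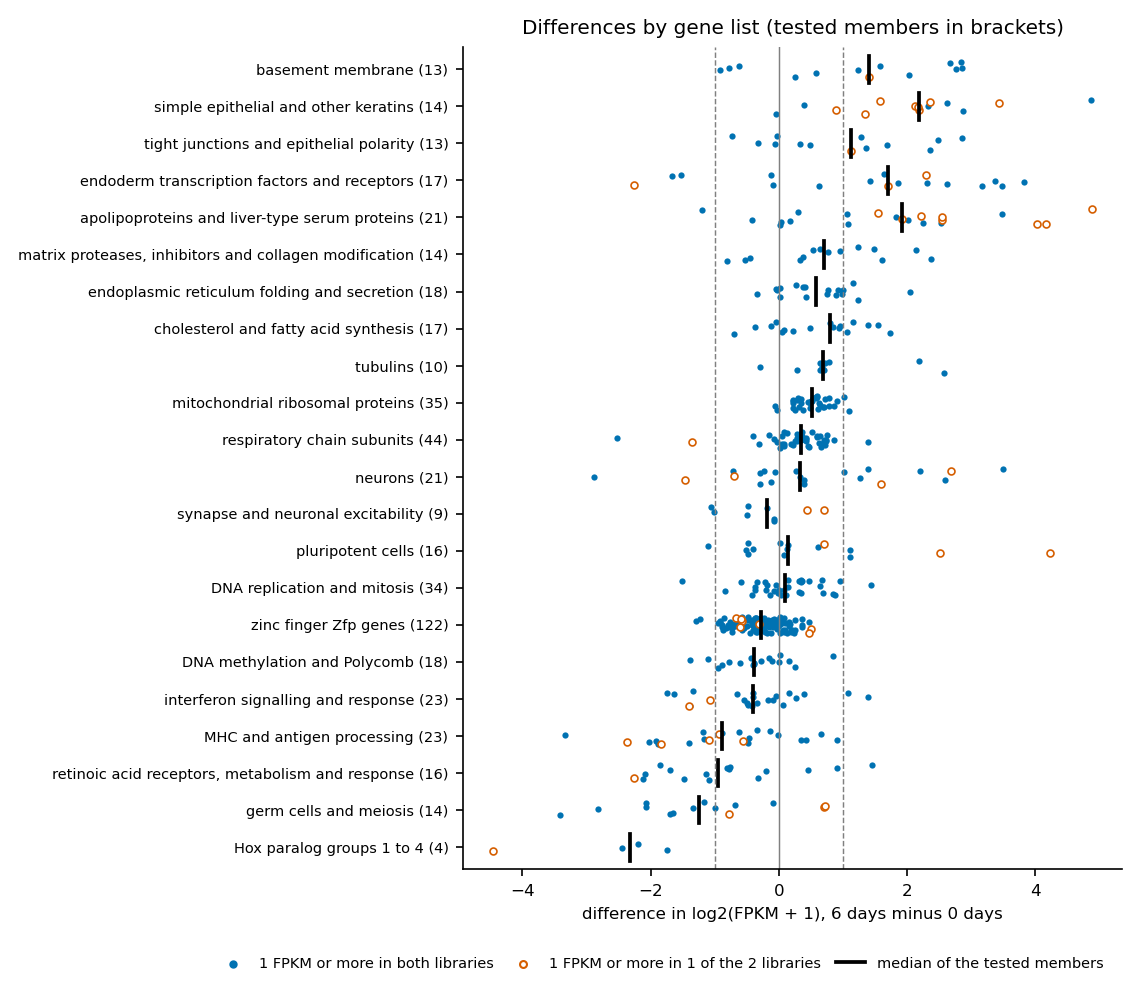
Difference in log2(FPKM + 1), 6 minus 0 days, of each tested member of 22 gene lists (1 point a gene, with a small vertical spread to separate points). Open points reached 1 FPKM in 1 of the 2 libraries, bars are medians and dashed lines mark 2-fold. Medians run from 2.18 for keratins to -2.31 for Hox groups 1 to 4, and mitochondrial ribosomal proteins form a narrow band around 0.51.

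The share of called genes differed among chromosomes, which was not tested. The share of tested genes that were higher ran from 6.31% on chromosome 17 to 12.2% on chromosome 13. Chromosome 13, with 59 higher and 14 lower of 482, carries the prolactin, placental cathepsin and Serpinb9 clusters, and chromosome 15 (11.4%) carries the type II keratins. Among 142 long noncoding RNAs 14 were higher and 6 lower.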

How the data were processed

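There was 1 library each of control, ATRA 0, ATRA 6 and ATRA 10 days. TRI Reagent gave total RNA and oligo(dT) primed the cDNA for Illumina libraries, per the labels' protocols. Per the submitters' processing notes the tools were Trimmomatic, TopHat and Cufflinks, with mm10. Annotation, strand setting and filters: not given in the sources used here. Values were deposited as FPKM per gene, per the file headers, as Cufflinks gives them, so no count test was possible.

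From these values, the 10201 rows were summed to 9997 symbols (177 had several rows). Of these, 1616 were listed at 0 in both libraries compared, 8381 were above 0 in at least 1, and the 5602 at 1 FPKM or more in at least 1 were tested. Differences are on the log2(FPKM + 1) scale, and 2-fold or more was called. Groups came from the labels. The alternatives were pseudocounts of 0.1 and 0.5, no filter, a 5 FPKM filter, median-ratio and upper-quartile scaling, 1 row (the highest) for a repeated symbol, and small RNAs left out. Depth was estimated from genes with 1 transcript of 800 nt or more. The worth of 1 fragment was the median of their values between 0.02 and 0.05 FPKM × kb, a range set beforehand. Depth limits the precision of low values. The code was tested on simulated data. Positions and gene classes are from GENCODE M21, and promoters from RefSeq. Python 3.11.15, numpy 2.4.6, pandas 2.3.3 and matplotlib 3.10.9 were used.

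The members and the 66 gene lists (48 written by hand, 18 by symbol pattern, 1049 distinct tested genes) were chosen with earlier results of these data known. Named were the 25 largest positive and 20 largest negative differences that reached 5 FPKM in either library, without predicted genes and without small or ribosomal RNAs, and genes at the edge of the filter. In each list, tested members 2-fold or more different and up to 4 others were named. Genes below the filter, and some further members within 2-fold, were named after their values were seen. A few genes stand in the counts of lists without being named.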

Additional observations from a re-analysis of the deposited data

How the results depend on the processing

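Counts of called genes moved most with the pseudocount. At 0.1 there were 653 higher and 456 lower genes, and 270 and 125 at 4-fold. At 0.5 there were 581 and 359, and 179 and 76 at 4-fold. A smaller pseudocount lets low genes pass the same fold. A 5 FPKM filter left 4153 genes, 328 higher and 193 lower, since fewer genes were tested. Without a filter the counts stayed at 484 and 287, as they had to. A gene under 1 FPKM in both libraries cannot differ by 2-fold on the log2(FPKM + 1) scale. Median-ratio scaling, which shifted differences by -0.01, gave 471 and 292, and upper-quartile scaling, by -0.03, gave 460 and 299. The highest row of a repeated symbol gave 483 and 284. The median of the primitive streak list, 1.13, became -0.46 under the 5 FPKM filter, where fewer of its genes were tested. Small medians changed sign with the filter too: without one, blood and endothelium went from 0.36 to -0.16, Hox groups 10 to 13 from -0.56 to 0.29 and connexins from 0.57 to -0.01. At 5 FPKM, lysosome went from -0.03 to 0.04, neural progenitors from 0.19 to -0.06, neural crest from 0.33 to -0.51 and Wnt from 0.16 to -0.26. Solute carriers, at 0.01, went to -0.02 and -0.04 under the scalings. The settings were also followed in 326 called genes, those named by the rule and those chosen after their values were seen. Of these 326, 322 and 319 were still 2-fold different under median-ratio and upper-quartile scaling. Under the 5 FPKM filter 236 were tested. None of these settings could turn the sign of a called gene. With 1 library a group, differences between libraries and between conditions cannot be told apart, and none could be left out. No paired analysis was possible because each group is 1 library. By the estimated depth, a value at 1 FPKM on 1 kb rests on 26 and 25 fragments, which limits what low genes can show.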

Other observations

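Some genes outside the lists, chosen after their values were seen, stood well above their 0-day level at 6 days. Lgals2, a galectin of gut epithelium, was at 2.48 (control), 9.56 (0 days), 96.5 (6 days) and 129.9 FPKM (10 days). Lgals3, a galectin of many epithelia and macrophages, was at 49.8, 2.89, 27.8 and 53.2 FPKM. Msln, mesothelin, of the lining of body cavities, was at 8.04, 0.264, 8.97 and 40.9 FPKM. All 3 were highest at 10 days, and Lgals3 had also been abundant in the control. Upk1b, uroplakin 1B, of urothelium, was listed at 0 in the control and was at 0.200 FPKM at 0 days and 6.51 at 6 days. Grhl2, a grainyhead factor of epithelia, was at 1.03, 0.462, 8.08 and 10.9 FPKM. Lad1, ladinin, of epithelial anchoring, was at 4.14, 1.10, 12.8 and 20.4 FPKM. Clic6, a chloride channel family member, was at 0.834, 4.10, 33.4 and 39.1 FPKM. Fhl2, a LIM protein of heart and muscle, was at 0.929, 2.94, 24.2 and 52.9 FPKM. Pantr1, a long noncoding RNA next to Pou3f3, was highest at 6 days, at 0.106, 0.662, 13.5 and 5.14 FPKM. Adora1, the adenosine A1 receptor, was at 0.435 FPKM at 0 days and 8.43 at 6 days.

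Lower genes outside the lists, chosen in the same way, came from several classes. Glis2, a zinc finger factor related to the Gli proteins, was at 14.9 (control), 40.3 (0 days), 9.22 (6 days) and 11.2 FPKM (10 days). Itpk1, an inositol phosphate kinase, was at 122, 48.0, 11.7 and 13.6 FPKM. Hap1, the partner of huntingtin, was at 48.8, 25.5, 5.05 and 5.399 FPKM. Itpk1 and Hap1 were highest in the control, whereas Glis2 was highest at 0 days. St6gal1, a sialyltransferase, was at 0.490, 14.5, 3.12 and 2.67 FPKM. Atp1b2, a sodium pump subunit of glia, was at 15.96, 23.1, 4.40 and 6.39 FPKM.

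The share of higher genes was 5.54% among the 2129 tested genes with a mean between 10 and 50 FPKM and 10.5% among the 363 at 100 FPKM or more, a difference that was not tested. A pair of symbols had very high values. Whether these values come from the transcripts of the genes themselves was not tested. Ispd was at 5462 (control), 10749 (0 days), 11919 (6 days) and 1.01 FPKM (10 days), so its 6-day value was near the 0-day value and its 10-day value was under 2 FPKM. Filip1l was at 3396, 3749.9, 12131 and 1379 FPKM.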
